A study of Mus musculus with 12 samples.

Results

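This account describes 91 genes that were nearly silent in stimulated wild-type B cells and carried reads in stimulated cells labelled as Chd4 knockout. They were picked from 32699 gene symbols by their own 48 hr values. Levels are CPM, a gene's reads divided by the library's total and scaled to 1e+06 reads. Mean CPM had to be below 0.5 in the wild-type (WT) 48 hr libraries and at least 1 in the knockout (KO) 48 hr libraries, with every KO library above every WT library. Vdr, Cfap43, Ccnb1ip1, Chd5, Kit and genes of the X and Y chromosomes were left out by the rule. The 48 hr values below are therefore a description of how the genes were chosen and carry no test. The KO against WT difference at 0 hr was not used by the rule and is the comparison tested here.

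The cells were purified mouse splenic B cells, either unstimulated (0 hr) or kept ex vivo for 48 hr in LPS at 10 µg/ml, a bacterial lipopolysaccharide that activates B cells, together with mouse interleukin 4 (IL-4) at 25 ng/ml, a cytokine that supports class switching. The 12 libraries form 4 groups of 3. Replicates 1 to 3 are WT and 4 to 6 are KO at 0 hr, while replicates 7 to 9 are WT and 10 to 12 are KO at 48 hr. The labels call the genotypes only WT and KO; the Chd4 allele, any Cre driver, the strain and the age of the animals are not given in the sources used here. Nothing in the labels states if the replicates of a group are different animals or different cultures. The p-values therefore reflect the spread among these particular libraries, and that spread may be technical.

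CHD4 is the ATP-driven motor of NuRD, a complex named for its nucleosome remodelling and histone deacetylase activities, which moves nucleosomes and removes acetyl groups at promoters and enhancers. NuRD is best known as a repressor, but it is also found at active genes, where it tunes their output. In the B lineage CHD4 takes part in the programme that sets B cell identity, and resting B cells entering division after LPS and IL-4 rebuild much of their transcriptome.

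Estimated counts totalled 39 M to 53.2 M per library, so 0.5 CPM stood for 19.5 to 26.6 reads and 1 CPM for 39 to 53.2 reads. Chd4, the targeted gene, had 74.7, 69.5 and 92.5 CPM in the stimulated WT libraries and 39.3, 28.8 and 56.1 CPM in KO 48 hr. At 0 hr it was at 136, 88.4 and 132 CPM in WT and at 134, 95.7 and 119 CPM in libraries labelled KO, so the level of Chd4 RNA separated the labels at 48 hr and not at 0 hr. KO and WT mean libraries labelled so throughout, and each 0 hr direction is one between labels that Chd4 RNA did not set apart. Xist, the RNA of the inactive X chromosome, was at 55.3 to 401 CPM in the WT libraries and at 0.643 to 2.15 CPM in the KO libraries, and the Y-linked gene Ddx3y was at 15 to 40.3 CPM and at 78.6 to 187 CPM. Every WT library thus held RNA of both genes, while the KO libraries held little Xist, and the labels do not give the sex of the animals. Sex-linked RNA differed with genotype at both times, and the effects of genotype and sex cannot be told apart. The B cell marker Cd79a was at 604 CPM or more in every library.

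Of the KO libraries, replicates 6 (0 hr) and 12 (48 hr) stood apart from the other 2 of their group in the 91 genes. The CPM summed over the genes was 24.4, 26.1 and 24.6 in WT 48 hr and 217, 245 and 107 in KO 48 hr replicates 10, 11 and 12. At 0 hr the sums were 162, 177 and 164 in WT and 384, 442 and 273 in KO replicates 4, 5 and 6. Replicate 12 was the lowest of its group for 71 of the 91 genes, against 37.1% of all tested genes, and replicate 6 was the lowest for 61, against 33.9%. Replicate 12 lay under 0.5 times the mean of replicates 10 and 11 in 52 of the genes (12.6% of tested genes), replicate 6 lay under 0.5 times the mean of 4 and 5 in 48 (10.3%), and 36 genes showed both (4.2%). Chd4 RNA was highest of its group in replicate 12 (56.1 CPM against 39.3 and 28.8 CPM). In replicate 6 it lay between the others of its group (119 CPM against 134 and 95.7 CPM). The labels do not tie the 0 hr libraries to the 48 hr ones, and the part of these differences in the results was not tested.

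**Figure D1:**
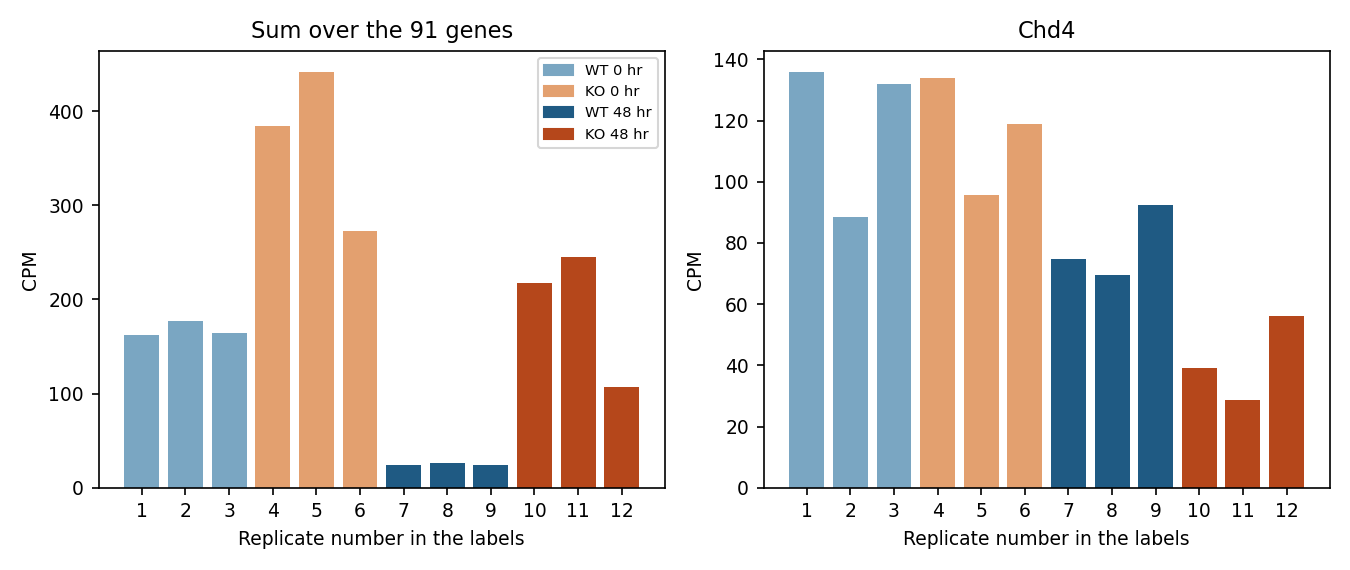
Bars give CPM in each of the 12 libraries, by replicate number, summed over the 91 genes (left) and for Chd4 (right). The sums in KO 48 hr were 217, 245 and 107 against 24.4 to 26.1 in WT 48 hr, and Chd4 was lower in all KO 48 hr libraries than in all WT 48 hr libraries.

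Most of the genes were only weakly expressed. In KO 48 hr the group means ran from 1.01 to 15.8 CPM with a median of 1.58 CPM, and 63 of the 91 genes stayed under 2 CPM. The median over the genes was 1.6 CPM in replicate 10, 2.02 CPM in replicate 11 and 0.799 CPM in replicate 12, against 0.245, 0.293 and 0.269 CPM in the WT 48 hr libraries. A level of 1 CPM was reached in both replicates 10 and 11 by 71 genes, in replicate 12 by 29 and in all 3 by 23. No gene was at 0 counts in all WT 48 hr libraries, so these genes are nearly silent rather than off in WT. In bulk RNA, fewer cells expressing a gene and less RNA per cell cannot be told apart. CPM is not corrected for transcript length, so levels are compared within a gene and not between genes.

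The rule took a small part of the nearly silent genes. Of 19207 genes under 0.5 CPM in WT 48 hr, 8949 had at least 1 read in KO 48 hr, 138 reached 1 CPM there and 0.474% (91) are the genes described. A further 47 of the 138 had libraries that overlapped or touched. With WT and KO exchanged, the same rule found 13 genes. Every KO 48 hr library lay above every WT 48 hr library in 12.3% of all tested genes, a share the rule used and from which nothing is read here.

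Just inside the WT limit lay Trp73 (0.497 CPM), Fut10 (0.496 CPM) and B3gnt9 (0.489 CPM), and just outside it Slc1a1 (0.504 CPM), Fndc9 (0.506 CPM) and Psma8 (0.51 CPM). At the KO limit, Garnl3 (1.01 CPM), Acvr2b (1.02 CPM) and Chrm4 (1.02 CPM) were inside, while Art5 (0.987 CPM), Arhgap32 (0.987 CPM) and Fndc4 (0.985 CPM) were not. The narrowest gaps between the lowest KO and the highest WT library were 0.468 against 0.461 CPM for Gmpr, 0.546 against 0.527 CPM for Garnl3 and 0.156 against 0.137 CPM for Arhgef25. Tmem59l averaged 2.22 CPM in KO 48 hr and Gm4371 1.52 CPM, yet both were left out because replicate 12 and all WT libraries were at 0 counts. Gm14431 was left out with 0.566 CPM in both its lowest KO and its highest WT library. The selection thus leaned on replicate 12: without it the rule gave 195 genes, of which 89 are among the 91.

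The history of the genes before stimulation divided them. In WT 0 hr, 40 of the 91 genes averaged 1 CPM or more, 19 lay between the limits and 32 were under 0.5 CPM. Among all genes nearly silent in WT 48 hr the classes held 2309, 1553 and 15345 genes, so the 91 genes made up 1.73%, 1.22% and 0.209% of them. The first class was expressed in the WT 0 hr libraries and was down at 48 hr, while the last was under the limit at both WT times. Marker sums of other cell types also fell in WT, for monocytes and macrophages from 240 to 453 CPM at 0 hr to 18.3 to 20.1 CPM at 48 hr. Those of neutrophils fell from 44.9 to 73.1 CPM to 2.84 to 3.74 CPM, while the dendritic cell and plasma cell sums did not fall. The part of other cell types in the first class was not tested. Over all 2309 genes of the first class the median was 0.248 CPM in stimulated WT and 0.275 CPM in stimulated KO cells.

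In the 40 genes expressed in resting WT cells, RNA at 48 hr was at a median of 10.2% of the WT 0 hr level in WT (range 1.44% to 44.7%) and 54.4% in KO (12% to 350%). KO 48 hr was below WT 0 hr in 28 of the 40. Against its own resting level, KO 48 hr was at a median of 35.2% and was lower in 32 of the 40. These shares depend on scaling: stimulation changes what makes up the library, and with library sizes scaled by TMM (edgeR's trimmed mean of M values), which moves the 48 hr against 0 hr ratio of WT by 0.89 on the log2 scale, the medians became 18.9%, 98.6% and 62.1%, and 20 of the 40 were below WT 0 hr. The KO against WT ratio moved by only 0.04 at 0 hr and -0.03 at 48 hr under the same scaling.

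Tsc22d1, a leucine-zipper regulator of transcription, had the highest WT 0 hr level of these genes, with 25.3, 28.7 and 22.9 CPM. It was at 0.453, 0.644 and 0.326 CPM in WT 48 hr and at 4.28, 5.07 and 1.52 CPM in KO 48 hr. The KO values lay between the resting and the stimulated WT values in all 3 libraries. Their place above stimulated WT was fixed by the rule, and Tsc22d1, Clec12a and Pilra were named for their high WT 0 hr levels. Clec12a, an inhibitory C-type lectin receptor, was at 13, 16.9 and 14.3 CPM in WT 0 hr. It was at 0.321, 0.449 and 0.672 CPM in WT 48 hr and at 1.57, 2.33 and 1.42 CPM in KO 48 hr, again between the 2. Pilra, an inhibitory receptor of myeloid cells, was at 4.19, 8.47 and 3.7 CPM in WT 0 hr, 0.227, 0.39 and 0.365 CPM in WT 48 hr and 0.924, 2.23 and 0.526 CPM in KO 48 hr. The annotated span of Pilra overlaps that of Zcwpw1, which was at 16.7 CPM on average in stimulated WT and 12.6 CPM in stimulated KO libraries. Strand was not recorded in the libraries, and whether the transcripts of the 2 genes share sequence was not checked. Reads of Zcwpw1 may therefore be counted in Pilra.

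Hspb1, a small heat-shock chaperone, showed the widest spread among the genes expressed at rest. It was at 5.63, 3.7 and 5.25 CPM in WT 0 hr and at 0.132, 0.0586 and 0.0192 CPM in WT 48 hr. In KO 48 hr replicates 10 and 11 held 4.55 and 6.46 CPM and replicate 12 held 0.37 CPM. In CPM, replicates 10 and 11 were near the WT 0 hr level, a comparison over time that depends on scaling, as above. KO 0 hr had the same split, with 33.1 and 37.5 CPM in replicates 4 and 5 and 3.5 CPM in replicate 6.

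The 32 genes that were under 0.5 CPM in WT at both times had a median of 1.73 CPM in KO 48 hr, and 29 of them were no higher in KO 0 hr than in KO 48 hr. Mapk8ip2, a scaffold of the JNK kinase pathway best known in neurons, had 0.024, 0.077 and 0 CPM in WT 0 hr and 0, 0 and 0.154 CPM in WT 48 hr. In KO 48 hr it had 6.77, 8.58 and 0.585 CPM, and in KO 0 hr 0.281, 0.793 and 0 CPM, so replicates 10 and 11 stood above the other 10 libraries. Trp73, which encodes a transcription factor of the p53 family, had 6.98, 7.38 and 1.62 CPM in KO 48 hr, against 0.906, 0.469 and 0.115 CPM in WT 48 hr and at most 1.2 CPM in any 0 hr library. Tnni1, the troponin I of slow muscle fibres, had 0 reads in all WT 0 hr libraries, 0.0417 CPM or less in KO 0 hr and 0.0944, 0.039 and 0.288 CPM in WT 48 hr. Its KO 48 hr values were 2.81, 3.97 and 0.682 CPM. Madcam1, the vascular addressin bound by a gut-homing integrin, had 5.98, 7.69 and 0.448 CPM in KO 48 hr and at most 0.396 CPM in WT 48 hr. In these 4 genes replicate 12 was the lowest KO library.

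Fold differences at 48 hr are unstable where WT has almost no reads. Gm5512 had 2 reads over the WT 48 hr group against 290 in KO, a ratio of 146 with an exact 95% interval of 40 to 1210, and Ndrg4, which encodes a cytoplasmic protein of the NDRG family, had 1 against 184, a ratio of 185 (32.8 to 7348). These intervals cover counting error only, on estimated reads pooled over the 3 libraries of each group. The rule had fixed the direction of both ratios, so the intervals are no test of a difference between KO and WT. Gm14085 was at 0.0755, 0.0195 and 0.0192 CPM in WT 48 hr, from 6 reads in all, and at 3.81, 3.15 and 2.92 CPM in KO 48 hr, from 513 reads.

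**Figure D2:**
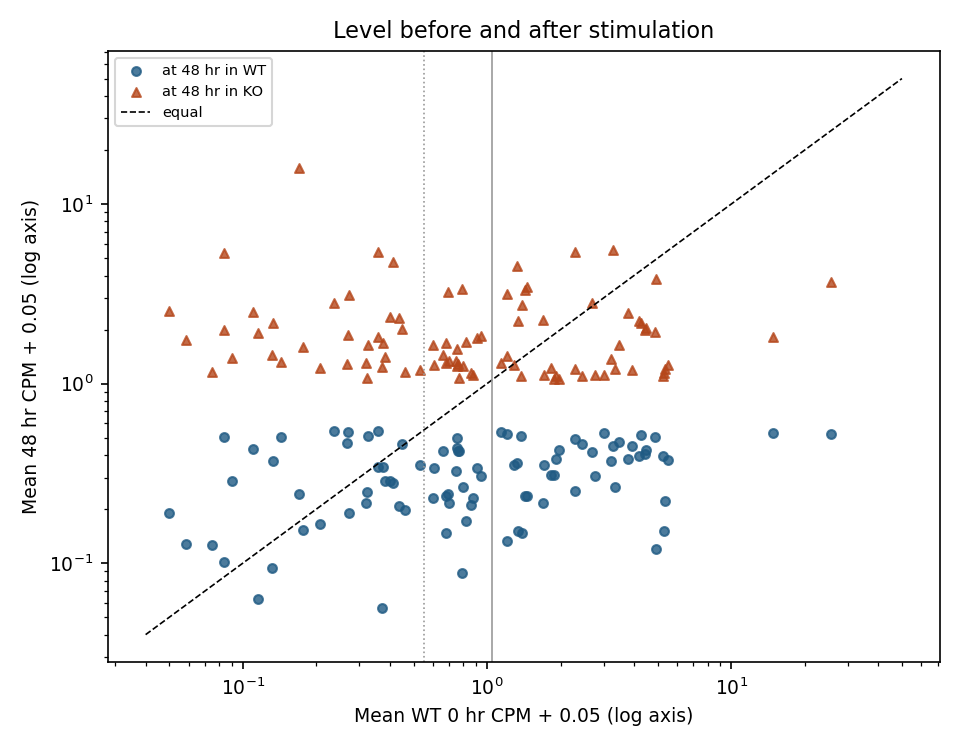
Each of the 91 genes is drawn by its mean WT 0 hr CPM (x) and its mean 48 hr CPM in WT (circles) and KO (triangles), with 0.05 CPM added, on log axes. The grey lines mark 0.5 and 1 CPM at 0 hr and the dashed line marks equal levels. The KO triangles lie below the dashed line for 28 of the 40 genes right of 1 CPM.

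By known role, the genes spread over many cell functions. Roles were assigned by hand after the genes were known, as an ordering and not as a test. Vesicle traffic is represented by 8 genes, with KO 48 hr means of 1.05 to 3.4 CPM. Napb, a cofactor that takes SNARE complexes apart after membrane fusion, had 3.43, 5.83 and 0.935 CPM in KO 48 hr against 0.245, 0.215 and 0.096 CPM in WT 48 hr. Stx3, a SNARE protein of the plasma membrane, had 3.62, 4.82 and 0.896 CPM against 0.491, 0.566 and 0.365 CPM. The other 6 are Rab34, Rab11fip5, Grtp1, Kdelr3, Sort1 and Syngr1.

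The cytoskeleton and its small GTPases account for 11 genes, at 1.01 to 2.7 CPM. They include the GTPase regulators Arhgap23 (4.98, 2.41 and 0.702 CPM in KO 48 hr) and Arhgef25 (2.89, 2.08 and 0.156 CPM), the Rap activators and relatives Rapgef3 and Garnl3, the minus-end motor Myo6, and Cttn, Fnbp1l, Phldb1, Plekha7 and Tnni1. In Arhgef25 the highest KO library was 18.5 times the lowest, the widest ratio of the 91 genes. Receptors and adhesion molecules account for 10 genes, namely Madcam1, Clec12a, Pilra, Il7r, Acvr2b, Chrm4, Epha2, Mcam, Ntng2 and Unc5a. Il7r, the interleukin 7 receptor chain of early lymphocytes and T cells, was at 3.93, 4.57 and 3.15 CPM in WT 0 hr, 0.415, 0.566 and 0.211 CPM in WT 48 hr and 1.23, 1.43 and 0.741 CPM in KO 48 hr. Its KO 0 hr values of 2.17, 4.3 and 3.2 CPM overlapped WT 0 hr.

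Enzymes, redox proteins and small-molecule carriers are the largest group, with 19 genes at 1.07 to 5.32 CPM. The peroxide-handling genes Gpx3 (4.89, 4.07 and 0.819 CPM in KO 48 hr) and Srxn1 (1.36, 1.21 and 0.877 CPM) belong here, as do the metal-binding Mt2 (0.924, 1.31 and 1.46 CPM) and the xenobiotic-metabolising Cyp1a1 (0.924, 1.88 and 1.19 CPM). Aqp9, a channel for water and glycerol, went against the common order of libraries with 4.21, 0.764 and 11 CPM in KO 48 hr. Gdpd3, a phospholipase, did so too, with 0.302 and 0.313 CPM in replicates 10 and 11 and 3.22 CPM in replicate 12, and in KO 0 hr with 1.71, 0.668 and 14.8 CPM. Both are among the 6 genes highest in replicate 12. The rest are Akr1c12, B3gnt9, Cox6b2, Cyb561, Fut10, Ggt7, Gmpr, Hebp1, Noxa1, Padi3, Papss2, Qpct and Smox.

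Nuclear and RNA-binding proteins number 9. H1fx, a linker histone variant, had 7.66, 7.81 and 0.974 CPM in KO 48 hr against 0.396, 0.527 and 0.269 CPM in WT 48 hr and 3.83, 2.08 and 3.8 CPM in WT 0 hr. Arntl2, a circadian transcription factor, was even across KO 48 hr with 1.13, 1.51 and 1.48 CPM against 0.0755, 0.039 and 0.134 CPM in WT 48 hr. Boll, a germ cell RNA-binding protein, had 1.43, 0.881 and 1.31 CPM against 0.359 to 0.566 CPM in WT 48 hr. Lmcd1, Rbpms2, Tox, Trp73, Tsc22d1 and Zfhx3 complete the group.

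Signalling, stress and cell death proteins number 13, with Mapk8ip2 and Hspb1 above and Bik, a BH3-only inducer of apoptosis, at 1.28, 1.84 and 0.702 CPM in KO 48 hr against 0.378, 0.351 and 0.634 CPM in WT 48 hr. The others are Cdk18, Cdkl2, Dthd1, Ldlrad4, Ndrg2, Ndrg4, Park2, Slc9a3r2, Spry4 and Tesc. Matrix and secreted proteins number 7, none above 1.39 CPM on average in KO 48 hr. They include Alb, Bglap3, Hapln4, Lamb2, Spint1 and Spock2. Alb, the serum albumin of hepatocytes, had 1.25, 2.37 and 0.565 CPM in KO 48 hr and at most 0.0755 CPM in WT 48 hr. The last 14 are provisional or less described genes, namely AK202495, Gm14085, Gm5512, Gm6455, Gm684, 1500009L16Rik, 2010005H15Rik, Nxpe4, Tmem121, Tmem150a, Tmem40, Fam149a, Fam198b and Rhbdl3.

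Lists of genes for other programmes held at most 1 of the 91 each. Over all nearly silent genes 0.474% were among the 91, and the lists are too short for their counts to be read against that share. Of the list genes nearly silent in WT 48 hr, 1 of 70 germ cell genes (Boll, 1.43%), 1 of 37 muscle genes (Tnni1, 2.7%) and 1 of 35 epithelial genes (Spint1, 2.86%) were among the 91. None of 49 cilium genes, 63 neuron and synapse genes, 88 developmental transcription factor genes, 46 cytokine genes and 22 imprinted genes was. The lists are not complete, and Mapk8ip2, best known in neurons, is on none of them. At 0 hr, of all tested list members, Nebl (muscle) was called higher in KO. Ryr2 (muscle), Cxcl10 and Cxcl13 (cytokines) were called lower in KO, while the other 6 of these lists had no call. Groups made by gene names gave 1 of 179 solute carrier genes (Slc9a3r2, an adaptor whose name only refers to a carrier), 1 of 1597 G protein-coupled receptor genes (Chrm4), 1 of 93 collagen and matrix genes (Lamb2), 1 of 91 cytochrome P450 genes (Cyp1a1) and 7 of 9336 provisional gene models. By its symbol Gm14085, called Slc28a2b in RefSeq, was counted with the provisional models and not with the solute carriers. The groups of ion channel, zinc finger, cadherin, homeobox, SOX and forkhead, cilium, testis and immunoglobulin or T cell receptor names gave none. Zfhx3, a zinc finger homeobox gene, is among the 91, but its symbol matched neither of those name groups.

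The genes did not lie next to each other. The closest pair, Epha2 and Padi3 on chromosome 4, started 491 kb apart, and no pair lay within 100 kb. Chromosome 2 held 11 of the genes and chromosome 9 held 10, or 0.977% and 1.4% of the nearly silent genes there. In the annotation 88 are protein coding, Gm6455 is a lincRNA, Gm5512 is a transcribed pseudogene and AK202495 could not be placed. The whole span of another annotated gene, introns included, overlapped 47 of them, and shared transcript sequence was not checked. The overlapping gene had 10 CPM or more in KO 48 hr for B3gnt9, Grtp1, Hebp1, Kdelr3, Ldlrad4, Pilra, Syngr1 and Tmem150a, and their counts may hold reads of that neighbour.

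**Figure D3:**
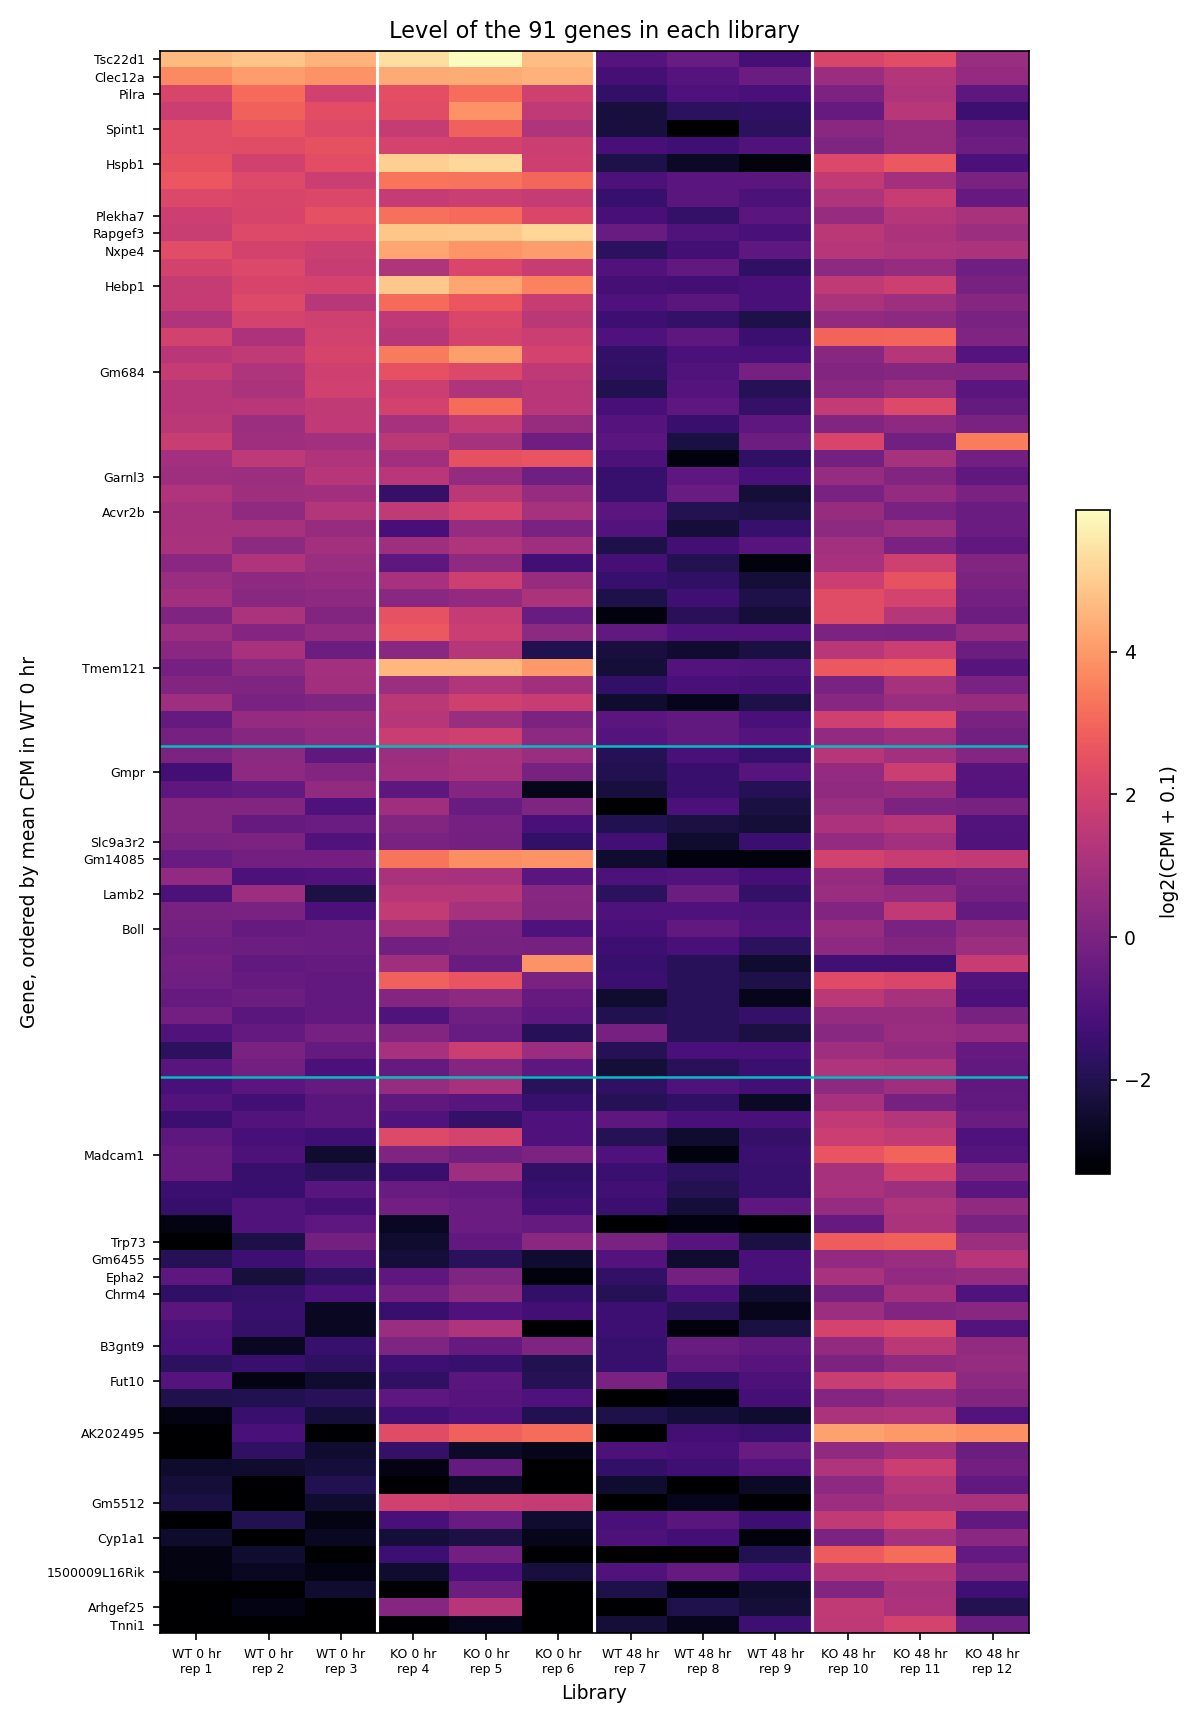
Colour gives log2(CPM + 0.1) of the 91 genes (rows, ordered by mean WT 0 hr CPM, with some named at the side) in the 12 libraries (columns). White lines part the 4 groups, and the light blue lines part the 40 genes at 1 CPM or more in WT 0 hr, the 19 between and the 32 under 0.5 CPM. KO 48 hr replicate 12 is darker than replicates 10 and 11 in most rows.

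Other cell types were followed by their markers, and none of the marker genes is among the 91. The 14 T cell markers summed to 30.6, 30.6 and 35.2 CPM in WT 48 hr and to 92.3, 88.1 and 36.5 CPM in KO 48 hr replicates 10, 11 and 12. At 0 hr they summed to 102 to 105 CPM in WT and to 190, 210 and 94.5 CPM in KO, so replicates 6 and 12 were the lowest KO libraries in this sum as well as in that of the 91 genes. At 48 hr most of the sum was Lck, a kinase of T cell receptor signalling, with 25.8, 25.5 and 29.6 CPM in WT and 84, 79.9 and 31.5 CPM in KO. Of the 14 markers, 7 were higher in KO 48 hr replicates 10 and 11 than in every WT 48 hr library. Among them was Tcf7 (0.491, 0.566 and 0.653 CPM in WT, 2.19, 1.25 and 0.234 CPM in KO). In replicate 12, 5 markers were above every WT 48 hr library, among them Cd4, which is not one of the 7. At 0 hr 9 were higher in replicates 4 and 5 than in every WT library (13% of tested genes) and 3 in replicate 6. For the other counts the share over all tested genes was not taken, so nothing is read from them. Cd3e, a chain of the T cell receptor complex, was at 2.3, 1.26 and 1.67 CPM in WT 0 hr and at 6.53, 5.13 and 0.827 CPM in KO 0 hr, the same split by replicate as in many of the 91 genes. At 48 hr Cd3e was at most 0.392 CPM and Trac, the receptor's alpha constant chain, at most 0.208 CPM in any library. None of the 14 was at 0 throughout a group. Zap70, a T cell kinase, was the 1 T cell marker called at 0 hr, higher in KO (1.89, 1.05 and 2.05 CPM in WT, 5.94, 10.7 and 3.48 CPM in KO).

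The 10 NK cell markers summed to 4.32 to 4.99 CPM in WT 48 hr (Klra8 at 0) and 10.8, 14.7 and 5.36 CPM in KO 48 hr. The 14 monocyte and macrophage markers summed to 18.3 to 20.1 CPM and 22.3 to 37.4 CPM, the 10 neutrophil markers to 2.84 to 3.74 CPM (Camp, Elane, Ly6g, Mpo and Retnlg at 0 in WT) and 3.76 to 6.76 CPM, and the 10 mast cell and basophil markers to 1.05 to 1.15 CPM and 1.05 to 3.99 CPM, with Mcpt4, Mcpt8 and Prss34 at 0 in both genotypes. Each of these lists reached higher sums in KO than in WT at 48 hr in at least 1 library, and their part in the 91 genes was not tested. At 0 hr, the time of the test, the NK cell markers summed to 23.4 to 29 CPM in WT and to 37.8, 50.8 and 24 CPM in KO replicates 4, 5 and 6, and the monocyte and macrophage markers to 240 to 453 CPM and to 375, 707 and 241 CPM. The neutrophil markers summed to 44.9 to 73.1 CPM in WT 0 hr and to 36.4, 156 and 12.5 CPM in KO 0 hr, the mast cell and basophil markers to 8.36 to 8.93 CPM and to 14.9, 10.6 and 7.03 CPM, and the dendritic cell markers to 115 to 137 CPM and to 126, 165 and 90.2 CPM. Replicate 6 was the lowest KO 0 hr library in each of these 5 lists, and their part in the 0 hr differences was not tested. The erythroid markers reached 2316 CPM in replicate 4 and were at 192 and 529 CPM in replicates 5 and 6, against 429 to 581 CPM in WT 0 hr. The 10 dendritic cell markers (106 to 131 CPM in KO, 142 to 143 CPM in WT), the 10 megakaryocyte markers (14.1 to 17.1 CPM and 20.5 to 30.8 CPM) and the 10 stromal and endothelial markers (36.6 to 37.6 CPM and 45.8 to 49 CPM) were lower in KO 48 hr. The 8 erythroid markers in the file were at 3.43 to 9.66 CPM in KO and 7.34 to 9.33 CPM in WT, the 8 plasma cell markers at 1251 to 1413 CPM and 1046 to 1098 CPM, and the 10 B cell markers at 4792 to 5415 CPM and 5053 to 5233 CPM. At 0 hr the plasma cell markers summed to 857 to 1023 CPM in WT and to 1275, 1589 and 1117 CPM in KO replicates 4, 5 and 6. Every KO library was above every WT library in this sum, and its part in the 0 hr differences was not tested. The B cell, megakaryocyte, and stromal and endothelial sums overlapped between the genotypes at 0 hr. Sdc1, a plasma cell marker, was called higher in KO at 0 hr, with 14.3, 13 and 10.1 CPM in WT and 16.9, 29.2 and 28 CPM in KO.

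The test at 0 hr asked whether the 91 genes already differed between the genotypes before stimulation. All 91 passed the filter on low counts, which they could pass through KO 48 hr alone, and 7 were higher in KO at an adjusted p under 0.05 (edgeR quasi-likelihood test, Benjamini-Hochberg over 19125 genes) while 0 were lower. Over all tested genes 0.68% were called higher and 0.429% lower. At an unadjusted p under 0.05, 27 of the 91 were higher and 0 lower, against 6.5% and 4.17% of all tested genes. The log2 fold change was above 0 in 73 of the 91, with a median of 0.79, against 49.8% and -0.00 over all tested genes. DESeq2 called 14 of the 91 higher (2.39% of all genes), limma-voom 8 (0.664%), and a fit of the 0 hr libraries alone 6 of the 79 genes it kept (0.257%). None of the 3 called any of the 91 lower.

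Without KO 0 hr replicate 6 the edgeR test called 14 of the 91 higher (1.48% of all genes). The 7 added genes included Arhgef25 (log2 fold change 7.23, adjusted p = 0.016), Cox6b2 (3.48, 0.016), Padi3 (3.36, 0.021), Hspb1 (2.88, 0.045), Zfhx3 (2.16, 0.037) and Tmem150a (1.69, 0.026), whose adjusted p with all libraries was 0.12 to 0.25. All KO libraries lay above all WT libraries at 0 hr in 19 of the 91 (5.85% of tested genes) and all below in 3 (9.26%). With replicate 6 set aside, KO lay above WT in 49 of the 91 (13% of tested genes). Replicate 6 itself lay within the WT range in 40 of the genes, below it in 27 and above it in 24.

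**Figure D4:**
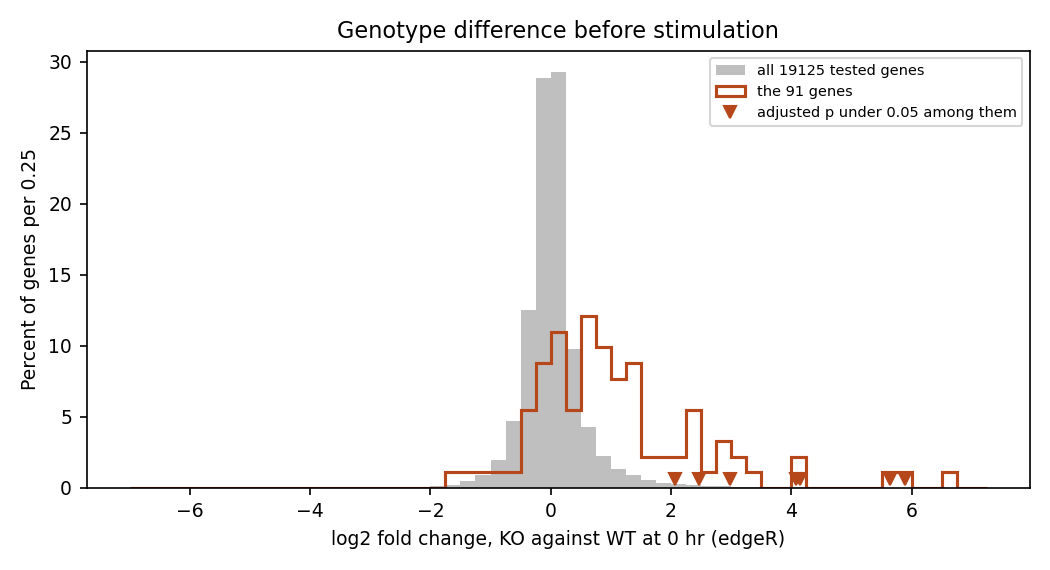
Histograms of the log2 fold change between KO and WT at 0 hr (x, edgeR) as percent of genes per 0.25 (y), for all 19125 tested genes (grey) and the 91 genes (orange line). Triangles mark the 7 called among the 91, and the median of the 91 is 0.79.

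The 7 genes higher in KO at 0 hr were Gm14085, Rapgef3, Gm5512, Nxpe4, AK202495, Hebp1 and Tmem121. In Gm14085, Rapgef3, Gm5512, Nxpe4 and AK202495 the highest KO 48 hr library was 1.15 to 1.63 times the lowest, though replicate 12 was still the lowest in all of them except Gm5512. Promoters are printed for the 5 of the 7 that have one in the RefSeq table (GRCm38.p6), which matched 70 of the 91 genes. Each window runs from 250 bases before to 50 bases after the start of the gene in RefSeq, 5′ to 3′ on the gene's strand, with CpG dinucleotides (CG, the same on both strands) in capitals. CpG density is shown because it is the main property by which mammalian promoters are divided and it differed widely among these 5.
Gm14085: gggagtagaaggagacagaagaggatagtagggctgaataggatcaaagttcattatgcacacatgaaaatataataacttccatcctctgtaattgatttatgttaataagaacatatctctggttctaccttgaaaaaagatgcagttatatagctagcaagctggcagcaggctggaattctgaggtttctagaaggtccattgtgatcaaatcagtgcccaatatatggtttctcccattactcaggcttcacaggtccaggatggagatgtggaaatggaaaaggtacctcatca
Nxpe4: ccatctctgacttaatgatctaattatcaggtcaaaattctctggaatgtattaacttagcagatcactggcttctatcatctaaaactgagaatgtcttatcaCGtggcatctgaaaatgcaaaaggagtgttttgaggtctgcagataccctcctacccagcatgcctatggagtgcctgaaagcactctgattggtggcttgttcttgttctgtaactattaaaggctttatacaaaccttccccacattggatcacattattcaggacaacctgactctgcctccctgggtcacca
Rapgef3: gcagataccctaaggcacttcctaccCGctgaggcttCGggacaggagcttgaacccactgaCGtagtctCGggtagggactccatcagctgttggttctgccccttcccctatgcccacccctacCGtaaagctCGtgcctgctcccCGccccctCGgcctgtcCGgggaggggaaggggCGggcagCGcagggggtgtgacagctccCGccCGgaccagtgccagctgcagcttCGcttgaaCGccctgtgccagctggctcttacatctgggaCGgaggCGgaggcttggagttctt
Hebp1: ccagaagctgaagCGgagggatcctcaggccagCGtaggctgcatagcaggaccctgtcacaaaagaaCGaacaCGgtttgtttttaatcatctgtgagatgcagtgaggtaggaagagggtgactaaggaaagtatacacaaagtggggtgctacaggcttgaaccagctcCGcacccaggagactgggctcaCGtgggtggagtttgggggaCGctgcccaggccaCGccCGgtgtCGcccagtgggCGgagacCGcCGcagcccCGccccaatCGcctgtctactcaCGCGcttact
Tmem121: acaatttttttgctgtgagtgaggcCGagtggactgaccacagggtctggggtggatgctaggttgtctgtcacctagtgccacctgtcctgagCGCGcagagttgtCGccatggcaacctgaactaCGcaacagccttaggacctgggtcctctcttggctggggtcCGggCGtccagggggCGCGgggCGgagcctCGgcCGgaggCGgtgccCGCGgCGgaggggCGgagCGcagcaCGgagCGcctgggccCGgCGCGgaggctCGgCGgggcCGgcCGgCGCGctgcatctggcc
The windows lie at chr2:122484691-122484990 (plus strand, Gm14085, called Slc28a2b in RefSeq), chr9:48361791-48362090 (plus, Nxpe4), chr15:97767617-97767916 (minus, Rapgef3), chr6:135168166-135168465 (minus, Hebp1) and chr12:113185653-113185952 (plus, Tmem121). They hold 0, 1, 17, 17 and 29 CpGs. The gene spans given below are from GENCODE, whose starts can differ from those of RefSeq, and the windows of Nxpe4 and Hebp1 lie far inside the GENCODE span. Over all 27025 windows of the table the median is 7, and 94.2% hold at least 1. The genes called at 0 hr thus include a window with no CpG and one with more CpGs than most windows of the table.

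Gm14085 (chromosome 2, 122484941 to 122528040, mm10), a protein-coding gene of the nucleoside transporter family, was at 0.647, 0.796 and 0.775 CPM in WT 0 hr and 9.87, 13.6 and 14.9 CPM in KO 0 hr. No library overlapped between the genotypes, and the log2 fold change was 4.15 (SE 0.31, edgeR adjusted p = 8.1e-06). Its adjusted p stayed between 1.1e-45 and 0.00036 over 19 alternative fits. Its 48 hr levels, given above, were lower in both genotypes.

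Rapgef3 (chromosome 15, 97744770 to 97767972), which encodes a cAMP-activated exchange factor for the small GTPase Rap, was at 3.31, 4.7 and 4.6 CPM in WT 0 hr and 29.6, 30.1 and 36.5 CPM in KO 0 hr. Replicate 6 was the highest KO library here. The log2 fold change was 2.97 (SE 0.26, edgeR adjusted p = 3.8e-05). After stimulation it was at 0.642, 0.41 and 0.346 CPM in WT and at 2.64, 2.08 and 1.62 CPM in KO, values given as levels with no test over time.

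Nxpe4 (chromosome 9, 48162023 to 48400025), a member of the neurexophilin and PC-esterase domain family, was at 5.03, 3.88 and 3.47 CPM in WT 0 hr and 19, 15 and 16.6 CPM in KO 0 hr (log2 fold change 2.06, SE 0.28, edgeR adjusted p = 0.0021). At 48 hr it was at 0.189, 0.312 and 0.538 CPM in WT and 2.36, 2.17 and 2.05 CPM in KO. The annotated gene overlaps its relative Nxpe2 on the opposite strand, which averaged 0.953 CPM in stimulated WT and 8.09 CPM in stimulated KO libraries, so reads of Nxpe2 may be counted here.

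Gm5512 (chromosome 19, 12905320 to 12906841), a transcribed pseudogene, was at 0.12, 0 and 0.075 CPM in WT 0 hr and 3.72, 3.28 and 3.08 CPM in KO 0 hr (log2 fold change 5.64, SE 0.60, edgeR adjusted p = 0.00026). It was at 1.62, 2.02 and 1.97 CPM in KO 48 hr. AK202495 is a cDNA-based model that the deposited annotation ties to a transcript of the tubulin gene Tuba1c. At 0 hr it was at 0, 0.359 and 0 CPM in WT and at 4.97, 7.22 and 8.65 CPM in KO, and at 48 hr at 0, 0.312 and 0.269 CPM in WT and at 17.5, 16 and 13.9 CPM in KO. Its log2 fold change at 0 hr was 5.88 (SE 0.85, edgeR adjusted p = 0.0035, and 0.061 in the fit of the 0 hr libraries alone). Such models can share sequence with other loci, and how the quantification divided reads between copies makes the levels of both uncertain. They are the 2 genes of the 91 that would also meet the selection rule if it were read at 0 hr, where it finds 34 genes in all and 16 with the genotypes exchanged.

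Hebp1 (chromosome 6, 135137522 to 135198022), which encodes a heme-binding protein, was at 3.14, 4.11 and 3.97 CPM in WT 0 hr and 11.7 to 29.8 CPM in KO 0 hr (log2 fold change 2.46, SE 0.43, edgeR adjusted p = 0.012). Tmem121 (chromosome 12, 113185930 to 113189523), a transmembrane protein, was at 0.839, 1.23 and 1.77 CPM in WT 0 hr and 23.7, 23.7 and 15.8 CPM in KO 0 hr (log2 fold change 4.07, SE 0.72, edgeR adjusted p = 0.013). In both genes replicate 6 was the lowest KO library but above every WT library, and replicate 12 at 48 hr (0.858 and 0.468 CPM) was far below replicates 10 and 11 (2.89 and 3.49 CPM, and 6.32 and 6.66 CPM). Hebp1 lost its call without WT 0 hr replicate 1 or 3, and Tmem121 without any 1 of the WT 0 hr libraries or KO 0 hr replicate 4 and with no filter on low counts, with adjusted p up to 0.079 and 0.091. The annotated span of Hebp1 overlaps that of Fam234b, at 11.7 CPM on average in stimulated WT and 22.1 CPM in stimulated KO libraries. Whether the transcripts of the 2 genes share sequence was not checked, so reads of Fam234b may be counted in Hebp1.

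**Figure D5:**
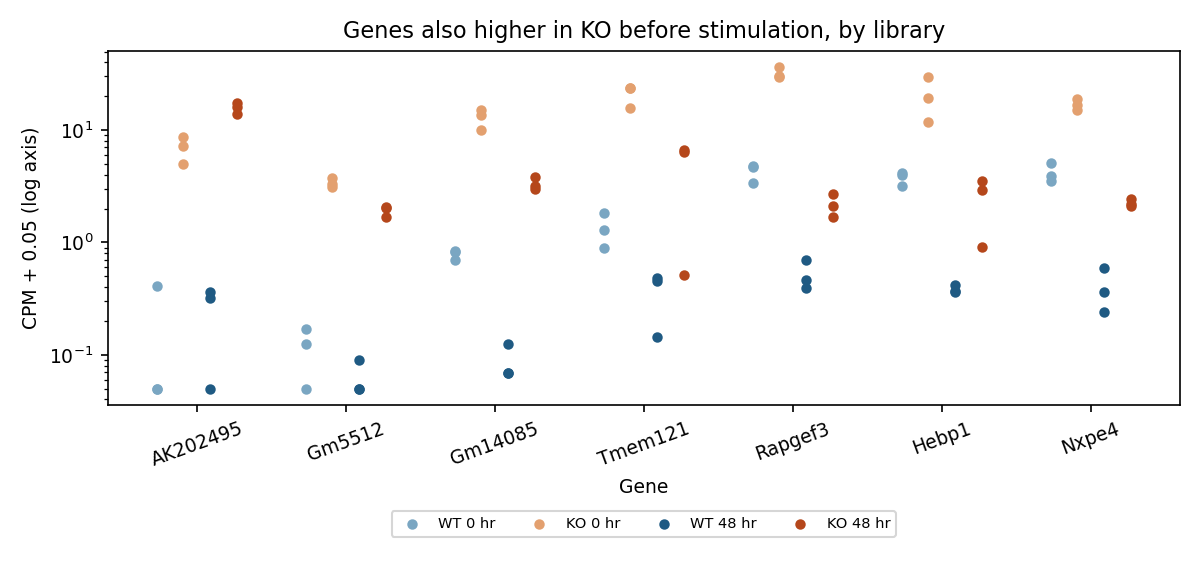
CPM (plus 0.05, log axis) of the 7 genes called higher in KO at 0 hr, 1 point per library, by group. The KO points lie above the WT points of the same time in every gene, and the lowest KO 48 hr point of Tmem121 (0.468 CPM) lies just above its highest WT 48 hr point (0.43 CPM).

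Many of the other 84 genes showed no difference that could be separated from the spread at 0 hr. Mapk8ip2 had a log2 fold change of 3.30 (SE 1.59, edgeR adjusted p = 0.5) on very few reads, Trp73 one of 1.10 (SE 1.06, 0.83) and H1fx one of 0.08 (SE 0.55, 0.99). Arntl2 (1.49, SE 0.34, 0.058) and Ntng2 (2.09, SE 0.53, 0.09) lay closest to the threshold. Papss2, Rbpms2 and Tox had every KO library below every WT library at 0 hr, with adjusted p of 0.84, 0.57 and 0.68. Over the 6 libraries at 0 hr, 7 of the 91 genes had fewer than 50 reads in all, so a difference in these was hardly detectable at this depth.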

How the data were processed

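The 12 RNA-seq libraries fall into 4 groups of 3 by the labels. Per the labels' protocols, a SMART-Seq kit, which does not mark strand, was used before sequencing of paired ends. The authors deposited 1 table of estimated counts in whole numbers per transcript; per the submitters' processing notes they used bcl2fastq 2.20.0.422, Trimmomatic 0.36, Salmon 0.8.2, DESeq2 1.14.1 and the mm10 build. Salmon shares reads among similar transcripts.

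Counts of 63759 transcripts were summed to 32699 symbols (344 names had trailing spaces, which were trimmed). CPM in the text is the count divided by the library total, times 1e+06. Of 101 genes meeting the rule, 4 named by it and 6 on the X chromosome were left out. AK202495 has no position and was kept. Positions came from GENCODE M21 on mm10 for 88 genes and through RefSeq synonyms for 2.

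Differences at 0 hr were tested with edgeR 4.0.16 (R 4.3.3, quasi-likelihood test, robust, TMM scaling, filterByExpr, 4 groups, 8 residual degrees of freedom) over 19125 genes with Benjamini-Hochberg adjustment at 0.05. Alternatives were DESeq2 1.42.0, limma-voom (limma 3.58.1), other scalings and filters, the 0 hr libraries alone, other limits of the rule, transcripts as features and leaving out each library; the TMM scaling of levels over time, and the no-overlap count at 0 hr under TMM and without each 0 hr library, were added after the data were seen.

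The members, lists and tests were chosen with earlier results of these data known. Genes were named by a rule: highest minimum in KO 48 hr, called at 0 hr, on a list or name group, highest in WT 0 hr, nearest each limit, or most and least even among KO 48 hr libraries. The other genes described were chosen after their values were seen, as were the roles. Promoters were found for 76.9% of the genes, under the 80% needed, so no property of promoters over the set is given. Intervals cover counting error only, since reads carry no molecular identifiers. Figures were drawn with matplotlib 3.10.9. Some single genes are not reported here.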

Additional observations from a re-analysis of the deposited data

Results flagged for a closer look

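Papss2, which makes the sulfate donor of the cell, Rbpms2, an RNA-binding protein, and Tox, a nuclear factor of lymphocytes, moved in opposite directions at the 2 times. At 48 hr every KO library was above every WT library, as the selection required, and at 0 hr every KO library was below every WT library. At 0 hr the KO minus WT difference of means was -1.22 CPM for Papss2 (4.58, 4.26 and 4.45 CPM in WT, 3.14, 3.34 and 3.14 CPM in KO), -0.887 CPM for Rbpms2 (1.94, 1.87 and 1.5 CPM, 0.332, 1.44 and 0.884 CPM) and -1.39 CPM for Tox (5.1, 4.88 and 5.6 CPM, 4, 3.92 and 3.48 CPM). None was called at 0 hr by edgeR. The change of direction between the times was not tested, and its 48 hr side was fixed by the choice of genes. All KO libraries lay below all WT libraries at 0 hr in 9.26% of tested genes.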

How the results depend on the processing

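No paired analysis was possible because the replicate numbers run from 1 to 12 and no 2 groups share one. The count of genes meeting the rule went from 91 to 40 with a WT limit of 0.25 CPM, 217 with 1 CPM, 28 with a KO limit of 2 CPM and 170 with transcripts as features (64 of the 91 among them), to 100 with TMM-scaled library sizes (62 shared), and to 76 to 195 when 1 library at 48 hr was left out, the last without KO replicate 12. At 0 hr, over all genes 130 calls higher in KO became 394 with DESeq2 and 47 in the fit of the 0 hr libraries alone, and 82 lower became 251 and 28; leaving out 1 library gave 40 to 291 and 39 to 135, lowest without WT replicate 3 and highest without KO replicate 6. Among the 91, 7 calls higher became 14 with DESeq2 and 5 to 14 when 1 library was left out, and 0 lower stayed 0 in all 19 alternatives. The count with every KO library above every WT library at 0 hr went from 19 to between 20 and 49 when 1 library at 0 hr was left out. Such a count can only stay or rise with fewer libraries, and over all tested genes the share rose from 5.85% to 13% without KO replicate 6. With TMM scaling the median levels of the 40 genes expressed in WT 0 hr became 98.6% (KO 48 hr of WT 0 hr), 18.9% (WT 48 hr of WT 0 hr) and 62.1% (KO 48 hr of KO 0 hr). The cause of these changes was not tested, except that fewer samples or genes enter some fits. The 0 hr log2 fold changes of the 7 called genes stayed above 0 in all 19 alternatives. With TMM scaling, some of the 40 genes moved from below to above their resting level. Those with KO 48 hr below WT 0 hr went from 28 to 20, and those below KO 0 hr from 32 to 26. The planned change of the CpG limit was not run, because too few of the genes had a promoter window. At 0.5 to 1 CPM a library holds about 20 to 53 reads of a gene, so single-library values of the weakest genes are imprecise.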
